A study of Mus musculus with 6 samples.

Results

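The 10 genes described here are pericentral hepatocyte genes and Wnt target genes of mouse liver: Glul, Cyp2e1, Cyp1a2, Axin2, Lgr5, Rnf43, Tbx3, Slc1a2, Slc1a4 and Rgn. They were chosen by name, and all 10 were found among the 25690 genes of the deposited expression table. RNA sequencing was run on hepatic tissue of 3 samples labelled as hepatic FTO knockout and 3 labelled as wildtype control, a comparison that asks how the liver transcriptome differs without FTO, an enzyme that removes N6-methyladenosine marks from RNA. The allele, the promoter behind the deletion, the strain, the sex and the age are not given in the sources used here. No label says whether the 6 libraries are of 6 different animals, so each p-value measures only how these samples spread, and part of that spread may be technical. Values of a group are listed in the order of its replicates 1, 2 and 3.

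Hepatocytes differ along the axis of the liver lobule, from the portal triad, where blood enters, to the central vein, where it leaves. Endothelial cells around the central vein secrete Wnt ligands and R-spondin 3, which stabilise beta-catenin in the neighbouring hepatocytes. Those pericentral cells express glutamine synthetase, drug-metabolising cytochromes P450 and feedback regulators of the Wnt pathway, whereas periportal cells carry out urea synthesis and gluconeogenesis.

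Levels are given in FPKM, fragments per kilobase of transcript scaled to the number of mapped fragments, which allows levels of different genes to be compared. The depth inferred from the lowest values was 34140000 to 42530000 fragments per library, with the widest uncertainty for FTO knockout replicate 3. Fto itself was at 1.79, 3.83 and 2.66 FPKM in knockout livers, against 6.67, 6.02 and 6.396 FPKM in wild type livers, so the knockout libraries lay below the wild type libraries and retained part of the signal (log2 change -1.004, SE 0.19, limma adjusted p 0.0386). The Fto call was lost in 7 of 13 alternative settings, with adjusted p-values of 0.0196 to 0.147 over all 13. General hepatocyte markers were abundant in all libraries: the 11 other than albumin summed to 50569 to 53046 FPKM in knockout and to 44849 to 68246 FPKM in wild type. Albumin was listed at 0 in FTO knockout replicate 3 and wild type replicate 1, and its lowest level elsewhere was 25046 FPKM.

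Of the pericentral genes, none tested was called higher or lower in FTO knockout than in wild type livers. The means of the feedback genes Axin2, Lgr5, Rnf43 and Tbx3 in knockout were 0.923 to 1.06 times those in wild type. These ratios were imprecise, with limma intervals of the log2 difference of -0.58 to 0.49 for Axin2 and -0.84 to 1.13 for Tbx3. With 1 library left out, the log2 difference of each of these genes was above 0 in some fits and below 0 in others. Without wild type replicate 3, the lowest library for each, it was below 0 for all, from -0.34 for Tbx3 to -0.089 for Lgr5. Removal of the lowest wild type library raises the wild type mean by design, so no conclusion is drawn from these signs. Of the 9 pericentral genes that reached a mean of 1 FPKM and were tested, 0 were higher and 0 were lower in knockout at an adjusted p under 0.05 in limma. Of these 9, 0 passed an unadjusted p under 0.05. Across all 10405 genes tested in the same way, 2.76% were called (1.11% higher and 1.65% lower in knockout) and 18.7% passed an unadjusted p under 0.05, so a count of 0 among 9 is near the background of calls. All 9 had libraries that overlapped between the groups, whereas 24.5% of all tested genes did not. Their median log2 change was -0.0029, beside -0.0018 for all tested genes. The remaining gene, the amino acid transporter gene Slc1a4, averaged 0.502 FPKM over the 6 libraries, below the minimum of 1, and was the single gene of the 10 whose groups did not overlap. Lgr5 passed that minimum narrowly, with a mean of 1.01 FPKM. In bulk tissue, fewer pericentral cells and less RNA per pericentral cell cannot be told apart, and the position of a transcript in the lobule was not measured.

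**Figure D1:**
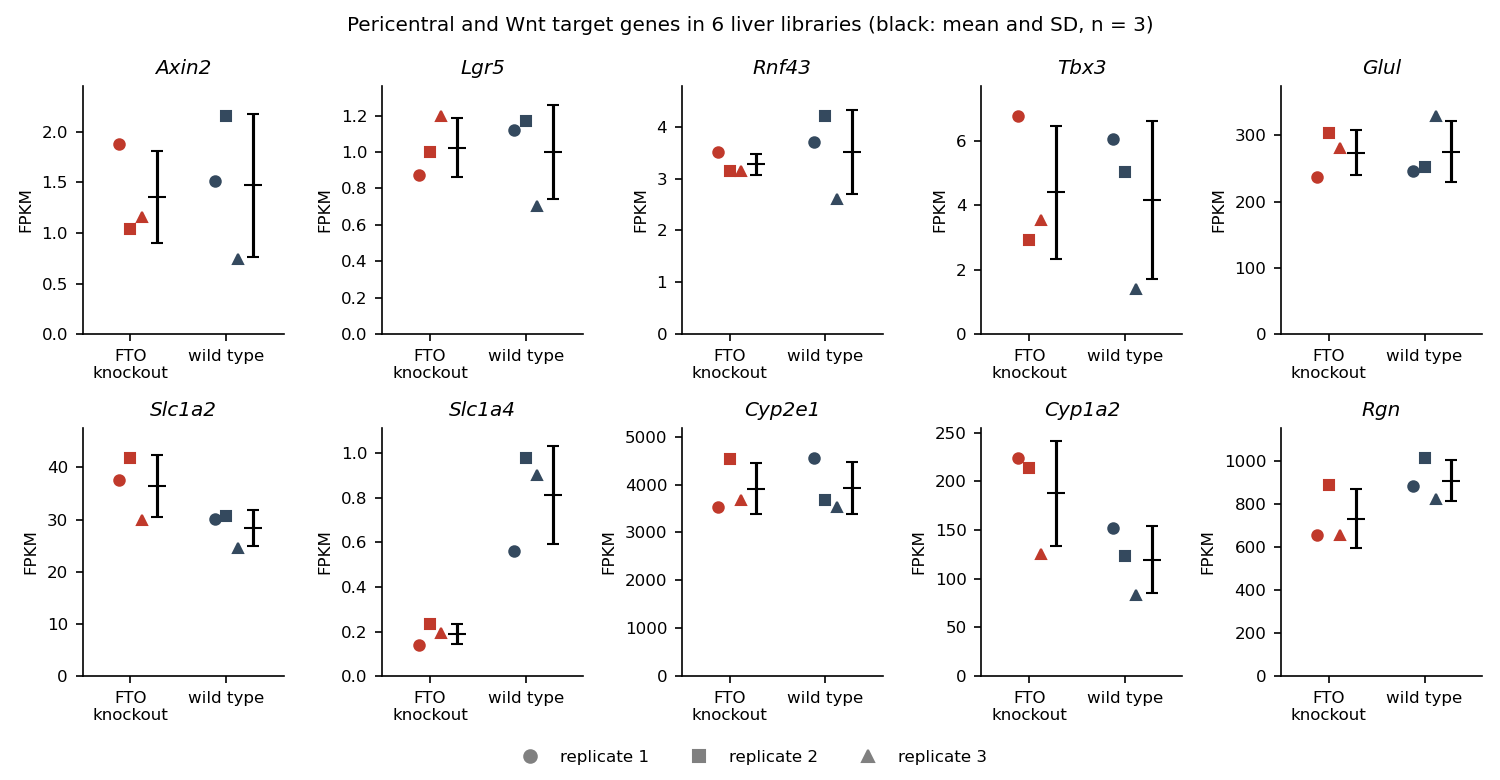
Expression of the 10 genes in FPKM in each FTO knockout library (red, left) and wild type library (dark blue, right), with marker shape for the replicate number and the mean and SD (n = 3) in black. Slc1a4 is the panel in which the 3 knockout libraries, at 0.140 to 0.234 FPKM, all lie below the 3 wild type libraries, at 0.564 to 0.978 FPKM.

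Of the Wnt feedback genes, Axin2 encodes a scaffold of the complex that degrades beta-catenin and is itself induced by beta-catenin. Axin2 (ENSMUSG00000000142, chromosome 11, 108920349 to 108950783), with coordinates here and below on GRCm38, the assembly of mm10, was at 1.88, 1.04 and 1.15 FPKM in knockout livers, against 1.52, 2.15 and 0.742 FPKM in wild type livers. The highest and the lowest of the 6 values were both wild type. The log2 difference, knockout minus wild type on the log2(FPKM + 1) scale, was -0.043 with a 95% interval of -0.58 to 0.49 and a limma adjusted p of 0.949. The interval includes differences of either sign, and the sign turned when FTO knockout replicate 2 or 3 or wild type replicate 2 was left out.

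Rnf43 encodes a membrane ubiquitin ligase that removes Frizzled receptors from the cell surface. Rnf43 (ENSMUSG00000034177, chromosome 11, 87662722 to 87735539) was at 3.51, 3.16 and 3.16 FPKM in knockout livers, against 3.705, 4.202 and 2.62 FPKM in wild type livers. The knockout libraries were close to each other, with a coefficient of variation of 6.23%, and lay within the range of the wild type libraries, whose coefficient was 23.1%. The log2 difference was -0.061 (interval -0.40 to 0.28; limma adjusted p 0.875).

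Lgr5 encodes a receptor for R-spondins, which protect Frizzled receptors from RNF43. Lgr5 (ENSMUSG00000020140, chromosome 10, 115450311 to 115587780) was at 0.874, 1.001 and 1.19 FPKM in knockout livers, against 1.12, 1.17 and 0.701 FPKM in wild type livers. Its means were 1.02 ± 0.162 FPKM in knockout and 0.999 ± 0.259 FPKM in wild type (SD, n = 3 each), with a log2 difference of 0.023 (interval -0.28 to 0.33; limma adjusted p 0.953).

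Tbx3, which encodes a T-box transcription factor expressed under beta-catenin control in hepatocytes, varied most among the 9 tested genes. Tbx3 (ENSMUSG00000018604, chromosome 5, 119670669 to 119684724) was at 6.75, 2.91 and 3.52 FPKM in knockout livers, against 6.05, 5.03 and 1.39 FPKM in wild type livers. The highest library held 4.87 times the level of the lowest, and both groups spanned low and high values. The log2 difference of 0.15 had an interval of -0.84 to 1.13 (limma adjusted p 0.901), so a change of 1 on the log2 scale toward higher levels lies inside it.

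Glul encodes glutamine synthetase, which captures the ammonia that escapes the periportal urea cycle and is made by the hepatocytes nearest the central vein. Glul (ENSMUSG00000026473, chromosome 1, 153899944 to 153909723) was at 237, 304 and 280.2 FPKM in knockout livers, against 246, 252 and 329 FPKM in wild type livers. The group means were 274 ± 33.8 FPKM in knockout and 276 ± 46.03 FPKM in wild type (SD, n = 3 each). The log2 difference was -0.0054 (interval -0.38 to 0.37; limma adjusted p 0.993). The highest library, wild type replicate 3, held 1.39 times the level of the lowest, FTO knockout replicate 1.

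The glutamate transporter gene Slc1a2 and the neutral amino acid transporter gene Slc1a4 belong to the same solute carrier family. Slc1a2 (ENSMUSG00000005089, chromosome 2, 102658659 to 102790784) was at 37.6, 41.7 and 29.9 FPKM in knockout livers, against 30.2, 30.7 and 24.5 FPKM in wild type livers. The groups overlapped, since FTO knockout replicate 3 lay just below wild type replicates 1 and 2. The log2 difference was 0.34 (interval -0.023 to 0.70; limma adjusted p 0.302) and 0.24 without wild type replicate 3 (adjusted p 0.391).

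Slc1a4 (ENSMUSG00000020142, chromosome 11, 20302180 to 20332713) was at 0.140, 0.234 and 0.193 FPKM in knockout livers, against 0.564, 0.978 and 0.902 FPKM in wild type livers. All 3 knockout libraries were below all 3 wild type libraries, and the wild type mean was 4.31 times the knockout mean. With its longest transcript of 3926 bases and the inferred depths, these levels correspond to about 19, 31 and 32 fragments in the knockout libraries and to about 77, 140 and 124 fragments in the wild type libraries. A two-sided exact permutation test of the means gave p = 0.1, the smallest p that 3 libraries against 3 allow.

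In a limma fit of all 18965 genes without a minimum level, the log2 difference of Slc1a4 was -0.60 (SE 0.095; interval -0.84 to -0.37; adjusted p 0.0576), so it was not called. That fit called 0.949% of genes (0.459% higher and 0.49% lower in knockout), and 20.6% of its genes had groups that did not overlap, 9.64% higher and 10.9% lower in knockout. The adjusted p of Slc1a4 was 0.0319 to 0.0558 under 6 further settings of this fit (4 scalings, a pseudocount of 0.1 and robust moderation), and under 0.05 in 5 of them. With 1 library left out it was 0.0223 to 0.214, and under 0.05 without wild type replicate 1. These combined settings were added after the data were seen.

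Other transporter genes of the family were named after their values were seen. Slc1a5, which encodes a glutamine transporter, lay on the other side of its wild type level, at 1.15, 1.11 and 1.76 FPKM in knockout livers, against 0.500, 0.327 and 0.716 FPKM in wild type livers (unfiltered limma adjusted p 0.121). All 3 of its knockout libraries were above all 3 wild type libraries, the reverse of Slc1a4. Slc1a1 and Slc1a3 were at 0.0502 FPKM or less in every library.

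The stretches before the annotated starts of Slc1a2 and Slc1a4 are shown because Slc1a4 was the gene of the set whose groups did not overlap and Slc1a2, its relative, held the Wnt-related motif most often. Each gives the 250 bases before the RefSeq start on GRCm38.p6, 5′ to 3′ on the strand of the gene. Capitals mark CTTTGA or its reverse complement TCAAAG, the core bound by TCF and LEF factors, the DNA-binding partners of beta-catenin. The Slc1a2 stretch is chr2:102706188-102706437 on the plus strand, inside the longer gene span given above, and the Slc1a4 stretch is chr11:20332714-20332963 on the minus strand.
Slc1a2: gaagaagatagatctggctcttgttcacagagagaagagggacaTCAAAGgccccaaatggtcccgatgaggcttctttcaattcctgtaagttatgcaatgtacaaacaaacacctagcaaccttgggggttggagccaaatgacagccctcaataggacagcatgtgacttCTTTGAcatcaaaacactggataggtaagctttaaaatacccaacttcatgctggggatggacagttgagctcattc
Slc1a4: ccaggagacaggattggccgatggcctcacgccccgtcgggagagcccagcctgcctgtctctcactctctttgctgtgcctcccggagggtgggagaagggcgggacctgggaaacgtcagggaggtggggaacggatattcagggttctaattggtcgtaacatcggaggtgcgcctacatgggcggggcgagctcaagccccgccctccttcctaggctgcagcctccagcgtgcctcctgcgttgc
In Slc1a2, whose stretch also crosses a short exon of an alternative GENCODE M21 transcript, the core began 206 bases before the start on the reverse strand and again 77 bases before it on the forward strand, and the Slc1a4 stretch held 0. Among 32851 stretches of 250 bases in the RefSeq set, 13.8% held the core on either strand and 1.37% held it more than once. Of the 10 genes, 7 had a stretch in that set, in 8 stretches as Rnf43 had 2 starts, and 3 of those genes held the core: Slc1a2, Cyp2e1 and Cyp1a2. A match is a description of letters and was not tested as a binding site.

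Cyp2e1, a P450 that oxidises ethanol and small solvents, was the most abundant of the 10 genes. Cyp2e1 (ENSMUSG00000025479, chromosome 7, 140763739 to 140774987) was at 3532, 4527 and 3689 FPKM in knockout livers, against 4547, 3685 and 3541 FPKM in wild type livers. Each group had 1 high library and a pair of lower ones. The means of 3916 ± 535 FPKM in knockout and 3924 ± 544 FPKM in wild type (SD, n = 3 each) gave a log2 difference of -0.0029 (interval -0.39 to 0.38; limma adjusted p 0.995).

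Cyp1a2, a P450 that metabolises caffeine and aromatic amines and is a target of the aryl hydrocarbon receptor, had the largest difference of the 9 tested genes. Cyp1a2 (ENSMUSG00000032310, chromosome 9, 57676937 to 57683703) was at 224, 213 and 126 FPKM in knockout livers, against 152, 123 and 83.3 FPKM in wild type livers. FTO knockout replicate 3 lay among the wild type libraries, so the groups overlapped. The means were 188 ± 53.7 FPKM in knockout and 119 ± 34.4 FPKM in wild type (SD, n = 3 each), with a log2 difference of 0.65 (interval -0.011 to 1.302; limma adjusted p 0.277). With 1 library left out, the difference was smallest without wild type replicate 3, at 0.41, and largest without FTO knockout replicate 3, at 0.91, and it was not called in any of these fits. Its paralog Cyp1a1, named after its values were seen, was at 1.91, 2.24 and 1.08 FPKM in knockout livers, against 1.38, 1.44 and 1.11 FPKM in wild type livers, far below Cyp1a2 in each library.

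The stretches before the starts of both P450 genes are the others of the set that hold the core, again in capitals, and are shown up to the first exon in GENCODE M21, which begins before the RefSeq start in both. The Cyp2e1 stretch is chr7:140763569-140763738 (170 bases) on the plus strand and the Cyp1a2 stretch is chr9:57683704-57683905 (202 bases) on the minus strand.
Cyp2e1: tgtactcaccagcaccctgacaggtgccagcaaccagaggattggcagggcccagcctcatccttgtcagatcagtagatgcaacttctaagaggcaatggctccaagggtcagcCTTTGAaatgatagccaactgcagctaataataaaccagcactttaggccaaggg
Cyp1a2: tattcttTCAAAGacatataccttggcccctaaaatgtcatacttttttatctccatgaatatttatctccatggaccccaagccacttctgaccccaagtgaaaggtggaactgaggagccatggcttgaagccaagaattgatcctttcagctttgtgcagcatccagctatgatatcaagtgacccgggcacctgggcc
The core began 135 bases before the RefSeq start of Cyp2e1 on the forward strand and 243 bases before the start of Cyp1a2 on the reverse strand. Neither transcript was called different between the groups, as given above.

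Rgn encodes regucalcin, a calcium-binding gluconolactonase that acts in ascorbate synthesis. Rgn (ENSMUSG00000023070, chromosome X, 20549787 to 20562089) was at 655, 888 and 653 FPKM in knockout livers, against 884, 1011 and 825 FPKM in wild type livers. FTO knockout replicate 2 lay within the wild type range and the other knockout libraries below it. The means were 732 ± 135 FPKM in knockout and 907 ± 95.3 FPKM in wild type (SD, n = 3 each), with a log2 difference of -0.32 (interval -0.71 to 0.068; limma adjusted p 0.361).

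**Figure D2:**
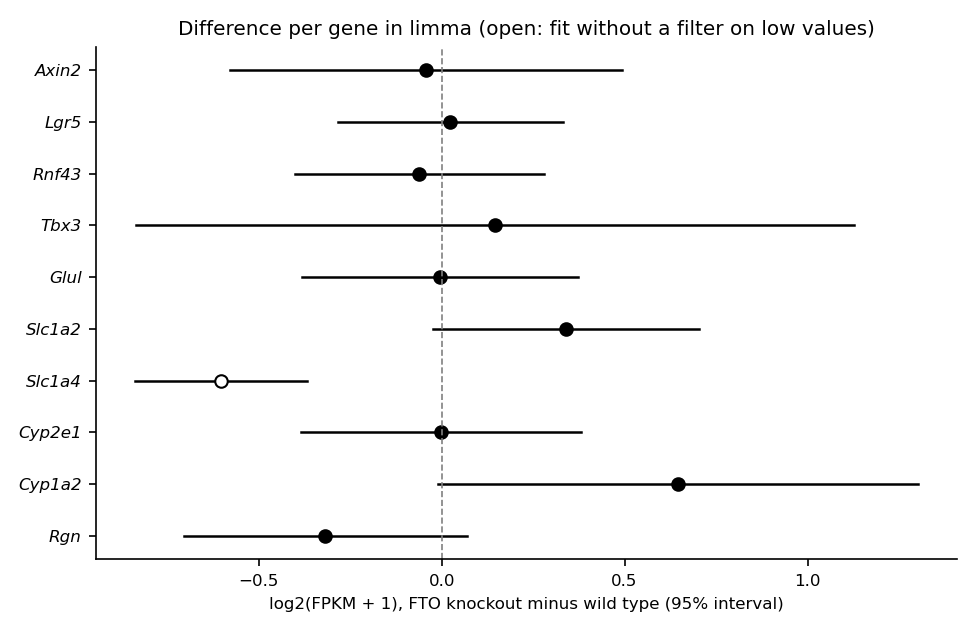
Log2 difference, FTO knockout minus wild type on the log2(FPKM + 1) scale, for each of the 10 genes with its 95% interval from limma; the open point for Slc1a4 comes from the fit without a filter on low values. The intervals of the 9 tested genes include 0, and that of Slc1a4 runs from -0.84 to -0.37.

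By mean FPKM over the 6 libraries, the genes ranked from high to low as Cyp2e1, Rgn, Glul, Cyp1a2, Slc1a2, Tbx3, Rnf43, Axin2, Lgr5 and Slc1a4. From Cyp2e1 to Tbx3, the ranges of neighbouring genes over the 6 libraries did not overlap, nor did those of Rnf43 and Axin2. Tbx3 and Rnf43 overlapped in both groups, and so did Axin2 and Lgr5. Lgr5 and Slc1a4 did not overlap in knockout, where Lgr5 was at 0.874 FPKM or more and Slc1a4 at 0.234 FPKM or less, and overlapped in wild type. Glul, Slc1a2, Cyp2e1, Cyp1a2 and Rgn thus stood at 24.5 to 4547 FPKM, and Axin2, Lgr5, Rnf43 and Tbx3 at 0.701 to 6.75 FPKM.

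Of the 10 genes, 6 were lowest in wild type replicate 3: Cyp1a2, Axin2, Lgr5, Rnf43, Tbx3 and Slc1a2. Of all 10405 tested genes, 19.9% were lowest in that library and 28.8% were highest there. FTO knockout replicate 1 was the lowest library for 3 genes, Glul, Cyp2e1 and Slc1a4, against 26.9% of tested genes. Axin2, Lgr5, Rnf43 and Tbx3 were thus all lowest in wild type replicate 3, while Glul was highest there. Without wild type replicate 3 the log2 differences were -0.27 for Axin2, -0.089 for Lgr5, -0.21 for Rnf43 and -0.34 for Tbx3, with limma adjusted p-values of 0.304 to 0.645. The signs of Lgr5 and Tbx3 were thereby turned, and 0 of the 9 tested genes were called. As the library left out was the lowest for Axin2, Lgr5, Rnf43 and Tbx3, their lower differences follow by design and no conclusion is drawn. Wild type replicate 3 also had the largest sum of FPKM, 1076602 against 843847 to 902782 in the other 5 libraries, and the smallest share of it in transcripts of the mitochondrial genome, 23.2% against 23.8 to 30.3%. The part of these features in the low values was not tested.

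**Figure D3:**
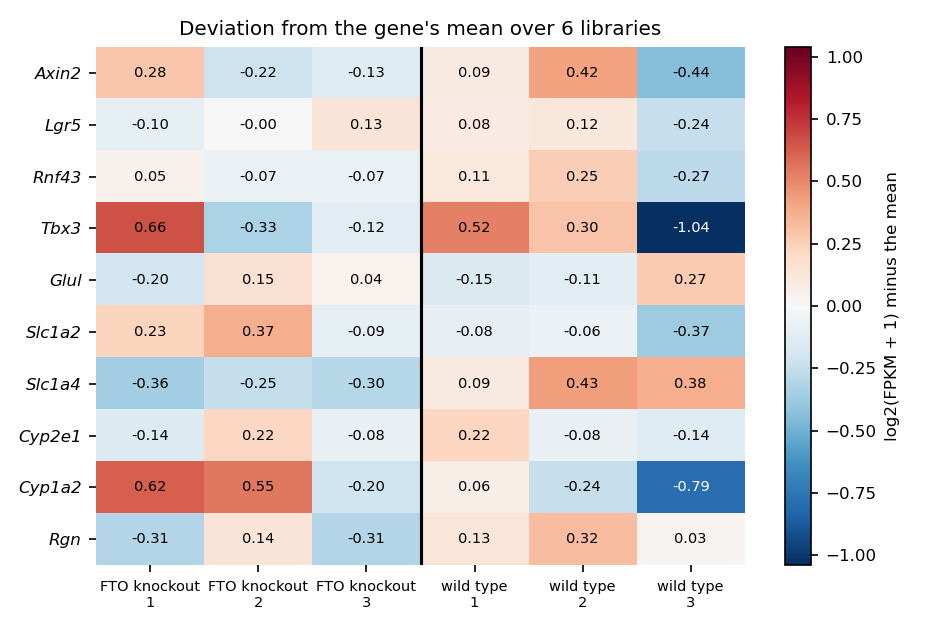
Deviation of each library from the gene's mean over the 6 libraries, on the log2(FPKM + 1) scale, with FTO knockout libraries left of the line and wild type libraries right of it. The wild type replicate 3 column is the lowest for 6 genes and reaches -1.04 for Tbx3, and the row of Slc1a4 is negative in all knockout libraries and positive in all wild type libraries.

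The tested genes of the rest of the Wnt pathway likewise held no call. Of 90 genes of Wnt ligands, receptors, signal transduction, inhibitors and other targets, 36 reached 1 FPKM, and limma called 0 of them. The other 54 were below the minimum and were not tested in this fit. Without adjustment, p was under 0.05 for 1 in the higher and 3 in the lower direction, together 4 of 36, beside 18.7% of all tested genes. The knockout libraries lay entirely above the wild type libraries for 7 and entirely below them for 5, beside 11.5% and 13.0% of all tested genes. The median log2 change of the 36 was 0.055. Wild type replicate 3 was the lowest library for 13 of the 36 and FTO knockout replicate 1 for 11.

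Among the ligands made by central vein endothelium, Rspo3 was at 1.81, 1.56 and 1.55 FPKM in knockout livers, against 1.92, 2.499 and 2.37 FPKM in wild type livers (log2 difference -0.30, SE 0.11, limma adjusted p 0.204). Wnt9b, below the minimum, was at 0.0946, 0.0963 and 0.0922 FPKM in knockout livers, against 0.133, 0.161 and 0.162 FPKM in wild type livers (unfiltered limma adjusted p 0.117). Both had all knockout libraries below all wild type libraries, as had 13.0% of tested genes and 10.9% of genes in the unfiltered fit. Wnt2, the other of these ligands, was at 0.811, 0.594 and 0.582 FPKM in knockout livers, against 0.731, 1.095 and 1.39 FPKM in wild type livers, with overlapping groups (unfiltered adjusted p 0.348). Porcn, which encodes the acyltransferase that lipidates Wnt proteins, was higher in all knockout libraries, with means of 1.44 ± 0.249 FPKM in knockout and 0.862 ± 0.181 FPKM in wild type (SD, n = 3 each) and an adjusted p of 0.162.

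Of 7 tested receptor genes, limma called 0. The Wnt receptor gene Fzd4 averaged 2.64 ± 0.222 FPKM in knockout and 3.27 ± 0.245 FPKM in wild type (SD, n = 3 each) with an adjusted p of 0.280. Ryk, another Wnt receptor gene, averaged 10.01 ± 0.525 FPKM in knockout and 8.27 ± 1.26 FPKM in wild type (SD, n = 3 each) with an adjusted p of 0.331. The co-receptor gene Lrp5 averaged 4.702 ± 0.611 FPKM in knockout and 5.19 ± 0.392 FPKM in wild type (SD, n = 3 each) with an adjusted p of 0.629. None of these differences passed the threshold. Lgr4, the R-spondin receptor related to Lgr5, stood at 4.94, 4.57 and 4.53 FPKM in knockout livers, against 5.35, 4.28 and 3.12 FPKM in wild type livers (adjusted p 0.717). Znrf3, the paralog of Rnf43, was at 0.704, 0.550 and 0.629 FPKM in knockout livers, against 0.938, 0.743 and 0.354 FPKM in wild type livers (unfiltered adjusted p 0.953). Both were lowest in wild type replicate 3, as Lgr5 and Rnf43 were.

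Inside the cell, Ctnnb1, which encodes beta-catenin, was at 47.3, 47.3 and 50.2 FPKM in knockout livers, against 39.5, 43.9 and 43.5 FPKM in wild type livers. Its knockout libraries lay above its wild type libraries, as did those of 11.5% of tested genes, by a log2 difference of 0.19 (SE 0.11; limma adjusted p 0.398). Apc, the scaffold that limits beta-catenin, averaged 2.19 ± 0.228 FPKM in knockout and 2.18 ± 0.268 FPKM in wild type (SD, n = 3 each) with an adjusted p of 0.983. Tcf7l2, a TCF factor of hepatocytes, was at 1.79, 1.56 and 1.87 FPKM in knockout livers, against 2.45, 1.93 and 0.978 FPKM in wild type livers (adjusted p 0.987), again lowest in wild type replicate 3. The coactivator gene Bcl9l averaged 2.35 ± 0.566 FPKM in knockout and 3.68 ± 0.576 FPKM in wild type (SD, n = 3 each) with an adjusted p of 0.153. Tcf7 (adjusted p 0.381) and the Dishevelled gene Dvl1 (adjusted p 0.396) had log2 differences of 0.22 and 0.21. Of the 21 tested transduction genes 16 were above 0 and 5 below, and 0 were called.

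Among inhibitors, Notum, a secreted deacylase of Wnt proteins, was at 9.72, 10.2 and 9.84 FPKM in knockout livers, against 10.4, 9.39 and 7.02 FPKM in wild type livers (limma adjusted p 0.630). Kremen1, a receptor of Dickkopf proteins, averaged 1.56 ± 0.253 FPKM in knockout and 2.11 ± 0.293 FPKM in wild type (SD, n = 3 each) with an adjusted p of 0.280, and Tmem131l had a log2 difference of 0.056 (adjusted p 0.872). Of the other targets, Tnfrsf19, which encodes a receptor of the tumour necrosis factor receptor family, was at 0.599, 0.910 and 0.605 FPKM in knockout livers, against 1.299, 1.502 and 1.41 FPKM in wild type livers. Its knockout libraries all lay below its wild type libraries, with a log2 difference of -0.50 (SE 0.11) and an adjusted p of 0.0668, which ranged from 0.0464 under quantile normalization to 0.246 over 13 alternatives. Zbtb12 had a log2 difference of 0.29 (adjusted p 0.467). Sp5, a beta-catenin target named after its values were seen, was at 1.27, 1.096 and 0.805 FPKM in knockout livers, against 0.805, 1.04 and 0.682 FPKM in wild type livers, with overlapping groups.

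Among other genes of the pericentral zone, most log2 differences were below 0, while calls went in both directions. Of 22 tested, Cyp7a1 and Avpr1a rose, Nt5e fell and 19 were not called, with a median log2 change of -0.23; 5 differences were above 0 and 17 below. These 3 calls stand beside 2.76% of all tested genes. Unadjusted p-values under 0.05 were found for 2 in the higher and 6 in the lower direction, beside 18.7% of all tested genes. The libraries of the groups did not overlap for 2 genes that were higher and 7 that were lower in knockout, beside 11.5% and 13.0% of all tested genes. Cyp7a1, which encodes the cholesterol hydroxylase that sets the rate of bile acid production, rose to 43.7, 45.7 and 65.2 FPKM in knockout livers, against 18.8, 17.96 and 20.4 FPKM in wild type livers (log2 change 1.37, SE 0.17, limma adjusted p 0.00723), and was called in all 13 alternatives. Avpr1a, a vasopressin receptor gene, rose to 4.21, 5.03 and 4.88 FPKM in knockout livers, against 2.36, 1.76 and 0.753 FPKM in wild type livers (adjusted p 0.0399). Nt5e, an ecto-nucleotidase gene, fell to 1.04 ± 0.294 FPKM in knockout, against 2.604 ± 0.322 FPKM in wild type (SD, n = 3 each), with an adjusted p of 0.0248. The calls of Avpr1a and Nt5e were lost in 7 and 5 of 13 alternatives, for both without a minimum level and without any 1 of the knockout libraries or wild type replicate 2 (adjusted p up to 0.158 and 0.0996). That of Avpr1a was also lost with a pseudocount of 0.1 (adjusted p 0.0591) and with libraries scaled to the same sum without mitochondrial genes (adjusted p 0.0515). Oat, an ornithine aminotransferase gene that shares the innermost zone with Glul, was at 334, 435 and 362 FPKM in knockout livers, against 472, 586 and 679.6 FPKM in wild type livers. All its knockout libraries lay below its wild type libraries, with a log2 difference of -0.61 (SE 0.18) and an adjusted p of 0.119; whether it differed from Glul in this was not tested.

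Periportal genes showed no common direction. Of 23 tested, only Mfsd2a was called, beside 2.76% of all tested genes, and the median log2 change was -0.028. Unadjusted, 5 were higher and 3 were lower with p under 0.05, beside 18.7% of all tested genes, and the groups did not overlap for 5 that were higher and 3 that were lower, beside 11.5% and 13.0%. The 23 include Alb, the albumin gene, which is listed at 0 in FTO knockout replicate 3 and wild type replicate 1; its lowest level elsewhere was 25046 FPKM. Without wild type replicate 3, 1 of the 23 was called higher and 2 were called lower. That fit called 4.57% of all tested genes, 2.56% higher in knockout. Mfsd2a, which encodes a lysophospholipid transporter, fell to 18.2, 17.9 and 21.6 FPKM in knockout livers, against 53.8, 40.5 and 76.2 FPKM in wild type livers (limma adjusted p 0.0159), a call lost without a minimum level or without any 1 of the knockout libraries (adjusted p up to 0.0683). The urea cycle gene Cps1 was at 317, 401 and 417 FPKM in knockout livers, against 238, 264 and 249.8 FPKM in wild type livers (log2 difference 0.58, SE 0.14, adjusted p 0.0808). Cyp2f2, a periportal P450 gene, averaged 477 ± 15.7 FPKM in knockout and 381 ± 22.4 FPKM in wild type (SD, n = 3 each) with an adjusted p of 0.193. Ass1, also of the urea cycle, averaged 1703 ± 287 FPKM in knockout and 1674 ± 319 FPKM in wild type (SD, n = 3 each) with an adjusted p of 0.961. Cps1 and Cyp2f2 had all knockout libraries above all wild type libraries, and Ass1 overlapped. Of 4 midlobular genes 3 were not called and Igfbp2 was, beside 2.76% of all tested genes. Igfbp2, which encodes a binding protein of insulin-like growth factors, rose to 388 ± 33.4 FPKM in knockout, against 171 ± 44.5 FPKM in wild type (SD, n = 3 each), with an adjusted p of 0.0246. This call was lost in 6 of 13 alternatives, among them those without any 1 of the knockout libraries or wild type replicate 2 (adjusted p up to 0.127).

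In each library, the median log2(FPKM + 1) of the 10 genes minus that of the periportal genes was -3.67, -4.32 and -4.08 in knockout livers, against -3.45, -4.26 and -4.61 in wild type livers. The median of the 10 genes is in each library the midpoint of Slc1a2 and the higher of Tbx3 and Rnf43. It does not reflect differences in Glul, Cyp2e1, Cyp1a2 or Rgn. These periportal medians include Alb with its 2 zeros. With Alb left out of all libraries, a choice made after the data were seen, the gap was -3.49, -4.13 and -4.24 in knockout livers, against -3.73, -4.05 and -4.53 in wild type livers. The group means then differed by 0.15 (0.088 with Alb), less than the SD of 0.40 between libraries. The same gap for the other pericentral genes, without Alb, was -0.51, -0.37 and -0.77 in knockout livers, against -0.31, -0.36 and -0.20 in wild type livers. All knockout libraries were thus below all wild type libraries, FTO knockout replicate 2 by little. With Alb kept it was -0.69, -0.55 and -0.60 in knockout livers, against -0.036, -0.56 and -0.28 in wild type livers, and the groups overlapped. These summaries are descriptions without a test.

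**Figure D4:**
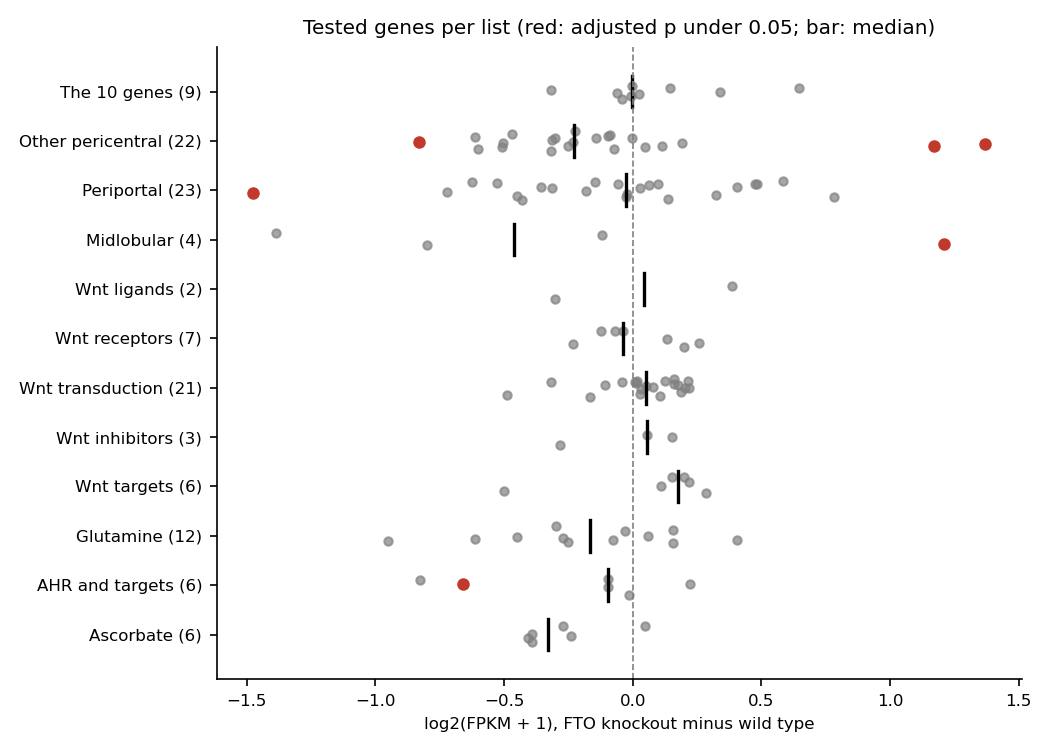
Log2 differences, FTO knockout minus wild type, of the tested genes of each list, 1 point per gene, with the list's median as a bar, called genes in red and the number tested in parentheses; some genes stand in more than 1 list. The 9 tested genes of the zonation set hold 0 red points, and the 22 other pericentral genes hold 3.

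Genes of the metabolism around the 10 genes were mostly not called. Of 12 tested genes of glutamine and glutamate metabolism and transport, limma called 0 higher and 0 lower; unadjusted, 0 and 4 were under 0.05, beside 18.7% of all tested genes in either direction, and the median log2 change was -0.16. The transaminase gene Gpt2 was at 31.5, 57.4 and 51.02 FPKM in knockout livers, against 84.7, 93.7 and 86.8 FPKM in wild type livers (log2 difference -0.95, SE 0.21, adjusted p 0.0650). Glud1, which encodes glutamate dehydrogenase, averaged 256 ± 27.4 FPKM in knockout and 349 ± 16.5 FPKM in wild type (SD, n = 3 each) with an adjusted p of 0.121. Gpt2, Glud1 and Oat were among 4 of these 12 genes whose knockout libraries all lay below the wild type libraries, and 0 lay above them, beside 13.0% and 11.5% of all tested genes.

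Of 6 tested genes of the aryl hydrocarbon receptor and its targets besides Cyp1a2, only Ugt1a6a was called, beside 2.76% of all tested genes. The median log2 change of the 6 was -0.096. Ugt1a6a, a glucuronosyltransferase gene, fell to 57.4 ± 4.25 FPKM in knockout, against 91.4 ± 11.3 FPKM in wild type (SD, n = 3 each), with a limma adjusted p of 0.0487. This call was lost without a minimum level and without any 1 of the knockout libraries or wild type replicate 2 or 3 (adjusted p up to 0.194), and Ugt1a6a shares exons with other Ugt1a genes, so its value is uncertain. Of 6 genes of ascorbate synthesis and transport, limma called 0 higher and 0 lower. Unadjusted, 0 and 2 were under 0.05, beside 18.7% of all tested genes in either direction. The median log2 change was -0.33, beside -0.32 for Rgn. The ascorbate transporter gene Slc23a1 averaged 14.9 ± 2.32 FPKM in knockout and 20.1 ± 3.21 FPKM in wild type (SD, n = 3 each) with an adjusted p of 0.211. Akr1a1, an aldo-keto reductase gene, and Ugp2, which encodes UDP-glucose pyrophosphorylase, each had a log2 difference of -0.39 (adjusted p 0.230 and 0.339).

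Some markers of other liver cells differed widely between libraries. The 12 Kupffer cell markers summed to 212 to 373 FPKM in knockout and to 74.4 to 255 FPKM in wild type, where wild type replicate 3 was highest. All 12 had log2 differences above 0, with a median of 0.89, and limma called 0. Unadjusted p-values under 0.05 were found for 5 in the higher and 0 in the lower direction, beside 18.7% of all tested genes. Without wild type replicate 3, 5 of these 12 markers were called higher, in a fit that called 4.57% of all tested genes, 2.56% higher in knockout. Leaving out the wild type library with the highest sum lowers the wild type sum by design, so no conclusion is drawn from these calls. Among the 12 markers, Marco was at 5.12, 1.67 and 6.77 FPKM in knockout livers, against 1.07, 1.61 and 0.908 FPKM in wild type livers (adjusted p 0.135, and 0.0148 to 0.341 over 13 alternatives). The 12 sinusoidal endothelial markers summed to 110.0 to 149.6 FPKM in knockout and to 85.2 to 184 FPKM in wild type. Their sum was again highest in wild type replicate 3, and limma called 0. Unadjusted p-values under 0.05 were found for 0 in the higher and 1 in the lower direction, beside 18.7% of all tested genes. That marker, Lyve1, averaged 0.997 ± 0.236 FPKM in knockout and 2.197 ± 0.995 FPKM in wild type (SD, n = 3 each) with an adjusted p of 0.178.

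The 6 central vein endothelial markers, Rspo3 among them, summed to 3.46 to 4.49 FPKM in knockout and to 4.31 to 5.99 FPKM in wild type. The 11 stellate cell markers summed to 63.7 to 92.8 FPKM in knockout and to 68.6 to 97.9 FPKM in wild type, and the 8 cholangiocyte markers to 30.95 to 36.2 FPKM in knockout and to 24.5 to 39.2 FPKM in wild type. Each of these 2 sums is mostly 1 gene, Dcn at 51.8 to 80.7 FPKM and Spp1 at 16.5 to 32.6 FPKM over all libraries. Below the minimum of 1 FPKM were 5 of the central vein, 6 of the stellate cell and 6 of the cholangiocyte markers. Of the stellate cell markers Lrat had a log2 difference of -0.33 (limma adjusted p 0.307), and of the cholangiocyte markers Spp1 one of 0.16 (adjusted p 0.775). No marker of these 5 lists was listed at 0 in a library. Of 12 hepatocyte markers only Ahsg was called, higher in knockout, beside 2.76% of all tested genes. Without adjustment, limma p was under 0.05 for 4 in the higher and 0 in the lower direction, beside 18.7% of all tested genes. The groups did not overlap for 4 that were higher and 0 that were lower, beside 11.5% and 13.0% of all tested genes. Ahsg averaged 4548 ± 292 FPKM in knockout and 2908 ± 45.6 FPKM in wild type (SD, n = 3 each), with an adjusted p of 0.0425. This call was lost in 9 of 13 alternatives (adjusted p up to 0.206). The part of these cell type markers in the values of the 10 genes was not tested.

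Overlapping genes add an uncertainty to some values, because it is not known here whether counting used strand. Axin2, Slc1a2 and Tbx3 overlap antisense genes in GENCODE M21, and Rnf43 overlaps a small nuclear RNA gene on the other strand, so reads of these pairs cannot be told apart. Teddm2, on the strand opposite Glul, was at 0.196 FPKM or less, and A930009A15Rik, opposite Lgr5, at 0.0687 FPKM or less. Slc1a4, Rgn, Cyp2e1 and Cyp1a2 overlap no gene of that annotation.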

How the data were processed

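RNA of hepatic tissue was sequenced in 3 FTO knockout and 3 wild type libraries. Per the labels' protocols, libraries followed a standard Illumina protocol on column-purified, DNase-treated total RNA; per the submitters' processing notes, TopHat2 2.1.0, HTSeq, Cufflinks 2.2.1 and build mm10 were used, with no role stated. The values the authors deposited for 25690 genes were read as FPKM, the unit Cufflinks gives; nothing read here names the annotation release. GENCODE M21 gave symbols for 24853 of the identifiers. An exact 0 can be a failed estimate.

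To infer depth, low values of 965 single-transcript genes (3000 to 8000 bases) that equal 1 fragment at a depth of 25000000 to 50000000 were used, 49 to 60 per library, and their median taken. Counts were not recovered, so no count model was used. The limma 3.58.1 fit in R 4.3.3 (lmFit, eBayes with trend, two-sided) took log2(FPKM + 1) of genes averaging at least 1 FPKM, a scale that understates changes of low genes. A call is a Benjamini-Hochberg adjusted p under 0.05 over all genes fitted. The fit was tested on simulated data. Slc1a4 was compared by an exact permutation test (scipy 1.17.1) and in a fit without the minimum. Alternatives were 4 scalings, a pseudocount of 0.1, no minimum, robust moderation and leaving out each library.

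The text names the 10 genes, Fto, the called genes of each list (otherwise up to 3 by smallest p, of which 1 is given for a cell type) and Wnt2, Wnt9b, Rspo3, Ctnnb1, Apc, Znrf3, Lgr4, Tcf7l2, Oat, Ass1, Cps1 and Cyp2f2. The members and lists were chosen with earlier results of these data known. Rhbg, Slc7a5 and Tf, on the lists, are not used here.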

Additional observations from a re-analysis of the deposited data

How the results depend on the processing

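Under 13 alternatives, 0 of the 9 tested genes were called; 97 of 117 log2 differences kept their sign and 20 turned it, for Glul, Cyp2e1, Axin2, Lgr5, Rnf43 and Tbx3. The median log2 difference over all tested genes was -0.0018, and it was 0.061 with libraries scaled to the same sum, 0.036 with that sum taken without mitochondrial genes, 0.014 after quantile normalization and 0.0017 with median ratio size factors. For Glul the difference was 0.073, 0.043 and 0.0062 under the first 3 of these. For Cyp2e1 these were 0.0759, 0.045 and 0.0757, and 0.0016 with median ratio size factors. Leaving out 1 library gave -0.084 to 0.13 for Glul, -0.11 to 0.11 for Cyp2e1, -0.27 to 0.15 for Axin2, -0.089 to 0.088 for Lgr5, -0.21 to 0.050 for Rnf43 and -0.34 to 0.44 for Tbx3. It gave -0.041 to 0.17 for Tmem131l, -0.064 to 0.047 for Apc, -0.18 to 0.083 for Znrf3 (unfiltered, with 0.0057 and 0.0062 among them), -0.029 to 0.28 for Lgr4, -0.22 to 0.18 for Tcf7l2, -0.12 to 0.17 for Ass1 and -0.060 to 0.41 for Spp1. Cyp1a2, Slc1a2, Rgn and Slc1a4 kept their sign in every alternative run.

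Over all genes, 287 were called, 115 higher and 172 lower (40.1% higher). Scaled to the same sum, 189 were higher and 164 lower (53.5%); with that sum taken without mitochondrial genes, 147 and 142 (50.9%); after quantile normalization, 180 and 225 (44.4%). Without the minimum 180 genes were called, 87 higher and 93 lower. Leaving out 1 library gave 77 (FTO knockout replicate 3) to 475 calls (wild type replicate 3), 38 to 266 higher and 39 to 209 lower; there were 127 without FTO knockout replicate 1 and 114 without wild type replicate 2. Of the other lists' genes 7 were called, 1 without the minimum and 1 to 14 with 1 library left out. The main fit called 2.76% of all tested genes and the fit without the minimum 0.949%. The 14 were called without wild type replicate 3, in a fit that called 4.57%. The cause of these shifts was not tested. The mean difference of Slc1a4 was -0.626 FPKM, and -0.751 to -0.544 FPKM with 1 library left out. The gap between the 10 genes and the periportal genes differed by 0.088, and by -0.16 to 0.42 with 1 library left out; without Alb, an alternative added after the data were seen, by 0.15, and by -0.080 to 0.34. No paired analysis was possible because the labels give no replicate numbers shared by the groups. At about 19 to 140 fragments per library, Slc1a4 rests on few reads.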
